A study of Mus musculus with 25 samples.

Results

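The genes described here encode the proteins of the cytosolic ribosome, the particle that translates nuclear-encoded mRNA. Their level was measured by RNA sequencing in mouse liver. A locus was taken as a member when one of the gene names the authors' files give it was Rpl or Rps followed by a number, with or without an a or x, or was Rplp0, Rplp1, Rplp2, Rpsa or Rpl36al. Names ending in -ps, which mark pseudogenes, were left out. The rule found 76 members among 46499 loci in the cohort of 20 weeks and the same 76 names among 46052 loci in the cohort of 39 weeks. Of these, 46 belong to the large subunit and 30 to the small subunit. They lie on 19 chromosomes, with 14 on chromosome 7 and 4 on X. All 76 had a mean level of at least 1 FPKM (fragments per kilobase of transcript, scaled to the mapped fragments of the library) at both ages, and none was listed at 0 in any mouse. At 20 weeks 56 members had a locus of their own and 20 shared one with other names, for instance of small nucleolar RNAs such as Snora64 at Rps2; at 39 weeks the numbers were 59 and 17.

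All 25 mice were C57BL/6 and ate a standard rodent diet. The young cohort held 4 wild-type mice and 4 mice labelled Ncoa5+/-, 20 weeks old and without treatment. The older cohort, 39 weeks old, held 4 wild-type and 5 Ncoa5+/- mice without treatment, and 3 wild-type and 5 Ncoa5+/- mice that drank metformin, a biguanide used against diabetes, in a daily dose of about 250 mg per kg, begun at an age of 8 weeks and kept up for 31 weeks. Ncoa5 encodes a nuclear receptor coactivator, and Ncoa5+/- marks heterozygous mice. Sex, and how the allele was made, were not given in the sources used here. The 2 cohorts were prepared and sequenced at different facilities, so no test was made between them. The labels name no litters or cages, and p-values measure only the spread between these mice.

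Each cytosolic ribosome holds 1 copy of nearly all of these proteins, the acidic stalk proteins being the exception, and cells make them in balanced amounts. Their mRNAs start with a run of pyrimidines, the 5′ terminal oligopyrimidine or TOP motif, through which the kinase mTORC1 and the RNA-binding protein LARP1 control their translation and stability. Several ribosomal proteins also act off the ribosome when assembly is disturbed: the 5S ribonucleoprotein with Rpl5 and Rpl11 binds MDM2 and so stabilises p53. In liver these genes are known for high expression in hepatocytes and for induction during growth and regeneration.

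The start of the transcript was read from RefSeq windows of build GRCm38.p6, which cover 56 of the 76 members. A run of at least 6 pyrimidines (C or T) on the sense strand, overlapping the 5 bases before to 10 bases after an annotated start, was found for 32 of those 56 (57.1%). The same search found it for 27.6% of 27025 genes. The windows below run from 15 bases before the annotated start to 15 from it onwards, with the pyrimidine run in capitals. The first set shows members with a run, among them the small-subunit and large-subunit genes with the widest differences reported further on.
Rps27, chr3:90213634-90213663, minus strand: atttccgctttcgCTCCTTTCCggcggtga
Rpl38, chr11:114668565-114668594, plus strand: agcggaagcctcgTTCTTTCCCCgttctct
Rps21, chr2:180257364-180257393, plus strand: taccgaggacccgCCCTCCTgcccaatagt
Rpl27a, chr7:109519180-109519209, plus strand: gacttcgtgagCTCCTCCCTTTTCCCTTTC
Rps6, chr4:86857353-86857382, minus strand: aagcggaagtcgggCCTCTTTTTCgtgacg
Rplp2, chr7:141447636-141447665, plus strand: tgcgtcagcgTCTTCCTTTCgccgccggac
Rps10, chr17:27635230-27635259, minus strand: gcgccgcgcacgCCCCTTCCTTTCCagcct
The second set shows members in whose window these letters were not found, which says nothing about the start used in liver.
Rplp0, chr5:115559452-115559481, plus strand: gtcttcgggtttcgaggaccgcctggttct
Rpl5, chr5:107900513-107900542, plus strand: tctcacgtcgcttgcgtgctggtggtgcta
Rps7, chr12:28635939-28635968, minus strand: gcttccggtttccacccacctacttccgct
Rpl26, chr11:68901551-68901580, plus strand: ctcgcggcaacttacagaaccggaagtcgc
In the wider window of 250 bases before to 50 after the start, both strands were searched for 4 motifs. The letters CCGGAA, a core bound by ETS-family factors such as GABP, were found for 31 of 56 members (55.4%) against 16.7% of all genes. ATGGCG, part of the YY1 motif, was found for 16 (28.6%) against 10.2%, and GGGCGG, the GC box, for 34 (60.7%) against 38.2%. TATAAA, the TATA box, was found for 6 (10.7%) against 15.7%. A match describes the letters only. CCGGAA and the pyrimidine run can overlap where the run holds TTCC.

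Expression of the targeted gene did not separate the genotype labels and so does not check them. Ncoa5 ranged from 2.63 to 5.03 FPKM in the 14 mice labelled Ncoa5+/- and from 3.11 to 6.64 FPKM in the 11 wild-type mice. In bulk tissue fewer cells of a type and less RNA per cell cannot be told apart. The hepatocyte markers Cps1, Hnf4a, Fgb and Tat were above 100 FPKM in all mice, while albumin, transferrin and Serpina1a were listed at 0 in all 25, which can mark a failed estimate in a gene of this kind. Ahsg and Ttr were listed at 0 in 4 of 8 mice at 20 weeks, so the summed level of 12 hepatocyte markers ran from 2715 to 4174 FPKM in wild-type and from 17386 to 19053 in Ncoa5+/- mice of that age. At 39 weeks Ahsg was listed at 0 in 5 of 17 mice and Ttr and Apoa1 in 10, and the sum was split the other way: 21601 to 28381 FPKM in untreated and 25912 to 28727 in treated wild type, 4378 to 5944 in untreated and 7731 to 10721 in treated Ncoa5+/- mice. Since zeros set it, the sum was not used as a level. The files hold FPKM and no counts, so the read depth behind a value is unknown. The 50 highest loci held 43.0% to 78.7% of a library's FPKM sum. In 3 libraries they held over 70%: wild-type replicate 4 of 20 weeks, and untreated Ncoa5+/- replicate 3 and treated Ncoa5+/- replicate 5 of 39 weeks. In wild type of 39 weeks the share was 57.1% to 60.7% without and 43.7% to 54.8% with metformin, without overlap. The part of this share in the differences below was not tested.

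Members differed widely in level on the FPKM scale, which is per length of transcript. At 20 weeks the mean over 8 mice ran from 52.6 FPKM for Rps20, a protein of the small-subunit head, to 929 FPKM for Rplp1 of the stalk, with a median of 289.7. At 39 weeks the mean over 17 mice ran from 22.9 FPKM for Rpl12, at the base of the stalk, to 2307 FPKM for Rps27, a zinc-finger protein of the small subunit, with a median of 461. The 5 highest at 39 weeks were Rps27, Rplp1, Rpl38, Rps29 and Rps28, and the 5 lowest were Rpl12, Rpl35, Rpl27a, Rpsa and Rpl15. At 20 weeks Rplp1, Rps27, Rps15, Rpl13a and Rps18 were highest and Rps20, Rpl6, Rpl37, Rpl35 and Rpl14 lowest. Rplp1 averaged 929 ± 75.5 FPKM (SD, n = 8) and Rps27 789 ± 173. Both were measured in the same 8 mice, and whether the order of these first 2 ranks held within each mouse was not examined.

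Between the cohorts, set side by side without a test, 70 members had a higher mean at 39 weeks and 6 a lower one. The ratio of means, 39 over 20 weeks, had a median of 1.78 and reached from 0.165 for Rpl12 to 6.39 for Rps20. Of the 10 highest members 7 were shared. Rpsa, the laminin receptor of the small subunit, stood at rank 15 with 507 FPKM at 20 weeks and at rank 73 with 194 FPKM at 39 weeks. Rpl12 went from 138 to 22.9 FPKM. Age and sequencing facility cannot be told apart here. The means of 39 weeks also take in the metformin-treated mice, while all mice of 20 weeks were untreated. In untreated wild-type mice alone, the summed FPKM of the members averaged 23243 at 20 weeks and 37602 at 39 weeks. In untreated Ncoa5+/- mice it averaged 25427 and 40743.

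**Figure D1:**
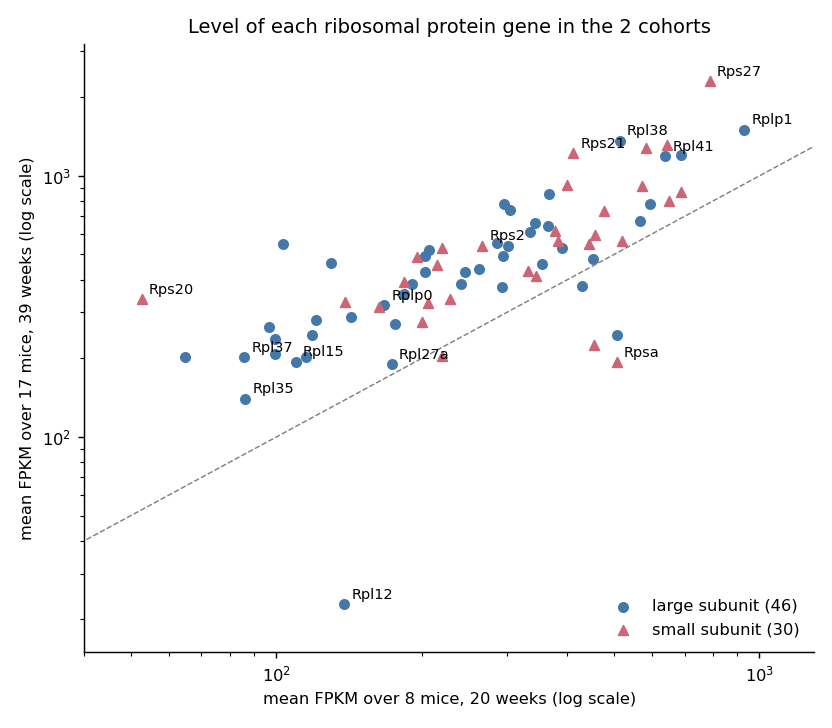
Mean FPKM of each of the 76 ribosomal protein genes in the 8 mice of 20 weeks (x axis) and the 17 mice of 39 weeks (y axis), both on log scales, with circles for the large subunit, triangles for the small subunit and a dashed line of equality. Most points lie above the line, by a median ratio of 1.78, and Rpl12, Rpsa and 4 others lie below it. The mice of 39 weeks include those given metformin.

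The members varied together from mouse to mouse. With group means removed, the Pearson correlation of log2(FPKM + 1) over 2850 pairs of members had a median of 0.81 over 8 mice at 20 weeks and 0.76 over 17 mice at 39 weeks, and 89.5% and 99.6% of pairs were positive. These values describe points that share a library and its scaling. The first principal component held 79.9% and 60.4% of the within-group variance. Rplp0, the protein that anchors the stalk, had the lowest median correlation with the other members at both ages, -0.50 at 20 weeks and 0.27 at 39 weeks. Rpl5 followed at 20 weeks with -0.49 and Rpl3, which shapes the peptidyl transferase centre, at 39 weeks with 0.30. Rps18 at 39 weeks (0.87) and Rps6 at 20 weeks (0.93) followed the rest most closely. Within groups the coefficient of variation of a member had a median between 5.78% in untreated wild type at 39 weeks and 22.7% in wild type at 20 weeks. In untreated wild type of 39 weeks Rpl21 (1.54%), Rpl5 (1.88%) and Rpl22 (2.42%) varied least and Rpl30 (24.1%), Rplp0 (14.1%) and Rpl12 (13.7%) most. In wild type of 20 weeks Rplp0 (5.50%), Rpl30 (5.70%) and Rpl3 (6.37%) varied least and Rps20 (50.9%), Rps2 (49.6%) and Rpl14 (43.2%) most, so Rplp0 and Rpl30 stood at opposite ends in the 2 cohorts.

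The summed FPKM of the 76 members gives their level in each mouse. At 39 weeks the untreated wild-type mice had 35120, 38618, 38326 and 38343 FPKM and the metformin-treated wild-type mice 52314, 50324 and 43109. The treated mice were all higher, without overlap, and the ratio of means was 1.29 with an SD of 0.141 carried from the spread between mice. The untreated Ncoa5+/- mice had 35877, 48790.1, 41029, 40272 and 37744 FPKM and the treated ones 44256, 38408, 48011, 40116 and 39628, a ratio of 1.03 with overlapping groups. At 20 weeks the wild-type mice had 26707, 27287, 19426 and 19551 FPKM and the Ncoa5+/- mice 20313, 29017, 24099 and 28279. The young wild-type mice formed a high pair, replicates 1 and 2, and a low pair, replicates 3 and 4, and the Ncoa5+/- values ran from near the low pair to above the high pair. Set against the FPKM of all other loci without the 50 highest of those, the 76 members came to 8.50% ± 0.317 in untreated and 10.8% ± 0.925 in treated wild-type mice (SD, n = 4 and 3), a ratio of 1.27, again without overlap. This second scale was added after the planned ones. On a planned scale, the members' share of the FPKM sum outside a library's 50 highest loci, the ratio was 1.16, also without overlap. The planned scale leaves out a member that is itself among those 50, which held for 1 member in each treated wild-type mouse. At 20 weeks the ratio of Ncoa5+/- to wild-type means was 1.09 for the summed FPKM, 0.976 on the second scale and 0.977 on the planned one.

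**Figure D2:**
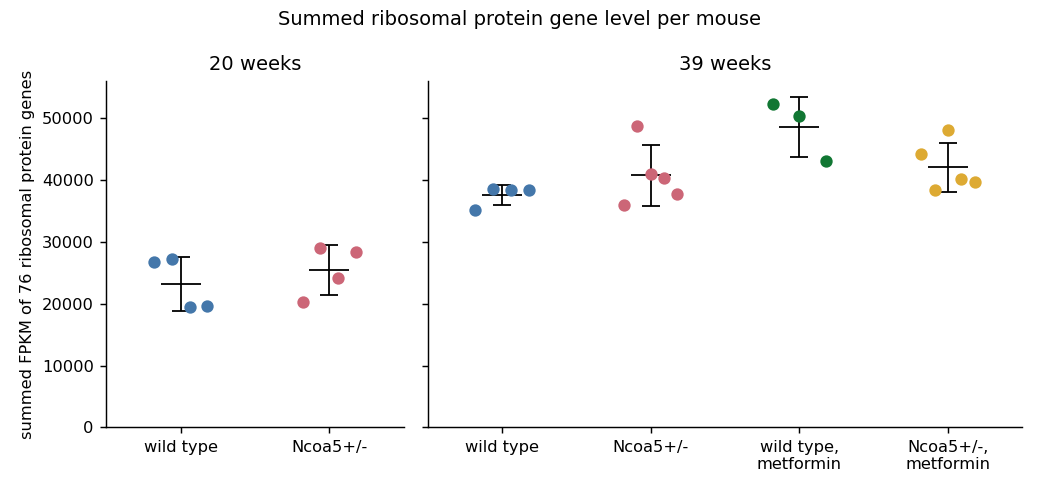
Summed FPKM of the 76 ribosomal protein genes (y axis, from 0) for each mouse, with 20 weeks on the left and 39 weeks on the right; points are mice, long ticks are group means and bars are ± 1 SD. The 3 metformin-treated wild-type mice lie between 43109 and 52314 and the 4 untreated ones between 35120 and 38618, while the groups of the other comparisons overlap.

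The comparison of metformin-treated with untreated wild-type mice asks what the drug does in wild-type liver. In it 72 of 76 members had a higher mean after metformin and 4 a lower one. Over all 11441 loci tested, 47.4% were higher. The median log2 fold change of the members was 0.28, against -0.01 over all loci. None of the 76 passed limma at an adjusted p under 0.05 (smallest 0.264), and 0% of all loci did. At an unadjusted p under 0.05 there were 47 members, all higher, where 9.35% of all loci reached it in either direction. The levels of treated and untreated mice did not overlap, treated higher, for 54 members (background 4.37%) and, treated lower, for Rps2 alone (background 3.96%). No single gene is therefore called, while the direction was shared by nearly all of the set. The members varied together within groups (median correlation 0.76 at 39 weeks). Counts of members, here and in the comparisons below, are therefore not counts of separate observations, and a shift shared by a few libraries moves most of them at once.

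The widest differences that held in all 3 treated mice were in short small-subunit and large-subunit genes. Rps27, at chromosome 3, 90212522 to 90213651 (GRCm38), stood at 1669, 1921, 1749 and 2044 FPKM in untreated and 3435, 3632 and 2515 in treated wild-type mice. The lowest treated mouse lay above the highest untreated one, and limma gave a log2 difference of 0.78 ± 0.17 (SE; adjusted p = 0.264). Rpl38, at chromosome 11, 114668524 to 114672331, is needed for the translation of certain Hox mRNAs in the embryo. It stood at 1023, 1109.9, 1111 and 1202 and 1813, 2120.3 and 1401 FPKM, a difference of 0.66 ± 0.15 on the log2 scale. Rps21, a small-subunit protein at chromosome 2, 180257377 to 180258445, had the smallest p of the members. It was at 916, 1051, 1014 and 1115 FPKM without and 1602, 1731 and 1405 with metformin, a log2 difference of 0.62 ± 0.13 (unadjusted p = 0.000202, adjusted p = 0.264 with limma). For all 3 genes the third treated mouse was the lowest of its group and the groups stayed apart. Rpl26, which binds p53 mRNA, differed by 0.53 ± 0.11, Rps24 by 0.49 ± 0.11, Rps15a by 0.51 ± 0.12 and Rpl27a by 0.47 ± 0.11, each with an adjusted p of 0.264.

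The stalk proteins did not share 1 direction. Rplp1 was at 1127, 1366, 1389 and 1478 FPKM in untreated and 1807, 1946 and 1652 in treated wild-type mice, higher by 0.43 ± 0.14 without overlap (adjusted p = 0.33). Rplp2 differed by 0.22 ± 0.12 with overlapping groups. Rplp0 was at 331, 284, 396 and 368 FPKM in untreated and 296, 269 and 289 in treated mice, a difference of -0.27 ± 0.15 (95% interval -0.60 to 0.06). The treated values of Rplp0 sat at the lower end of the untreated range. Of the proteins that bind MDM2, 4 were taken as a list (Rpl5, Rpl11, Rpl23 and Rps7), which is not the whole class. All 4 were higher, by a median of 0.13, the widest being 0.23 ± 0.11 for Rpl23. Rpl5 was at 190.5, 199, 196 and 195 and 224, 211 and 206 FPKM, close values that did not overlap.

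The 4 X-linked members (Rpl10, Rpl36a, Rpl39 and Rps4x) were higher by a median of 0.36, all without overlap. This was shared by 54 of all 76 members and by 4.37% of all loci. Rpl36a, whose autosomal copy is Rpl36al, was higher by 0.41 ± 0.13, and Rpl36al by 0.13 ± 0.09 with overlap. Rps6, the substrate of S6 kinase below mTORC1, was at 286, 335, 333 and 292 FPKM in untreated and 383, 363 and 333 in treated wild type, a difference of 0.21 ± 0.11 with overlapping groups. Rps14, the gene of the human 5q- syndrome, differed by 0.06 ± 0.10. Rps27a, which is made as a fusion with ubiquitin, differed by 0.36 ± 0.12, Rpl22 by 0.40 ± 0.10, Rpl3 by 0.14 ± 0.10 and Rpl41, the shortest ribosomal protein, by 0.11 ± 0.11. The large subunit had a median of 0.26 (43 of 46 higher) and the small subunit 0.31 (29 of 30 higher).

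Besides Rplp0, the members with a lower mean were Rps2, Rpl35 and Rpl12. Rps2, at the mRNA entry of the small subunit, was at 542, 562, 668 and 575 FPKM in untreated and 514, 515 and 527 in treated mice, lower in all 3 (-0.17 ± 0.12, adjusted p = 0.676). Rpl35 differed by -0.05 ± 0.13 and Rpl12 by -0.02 ± 0.17. The largest fitted value of all, 1.29 ± 0.45 for Rpl21, rests on 1 mouse. Its treated values were 1638, 264 and 208 FPKM against 182, 182, 186 and 179 in untreated mice, and its locus carries 2 further gene names. Rps2 and Rpl12 share their loci with small nucleolar RNAs, while Rplp0 and Rpl35 have loci of their own. The 32 members with a pyrimidine run at the start had a median difference of 0.30 (29 higher) and the 24 without one in the window 0.26 (23 higher).

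**Figure D3:**
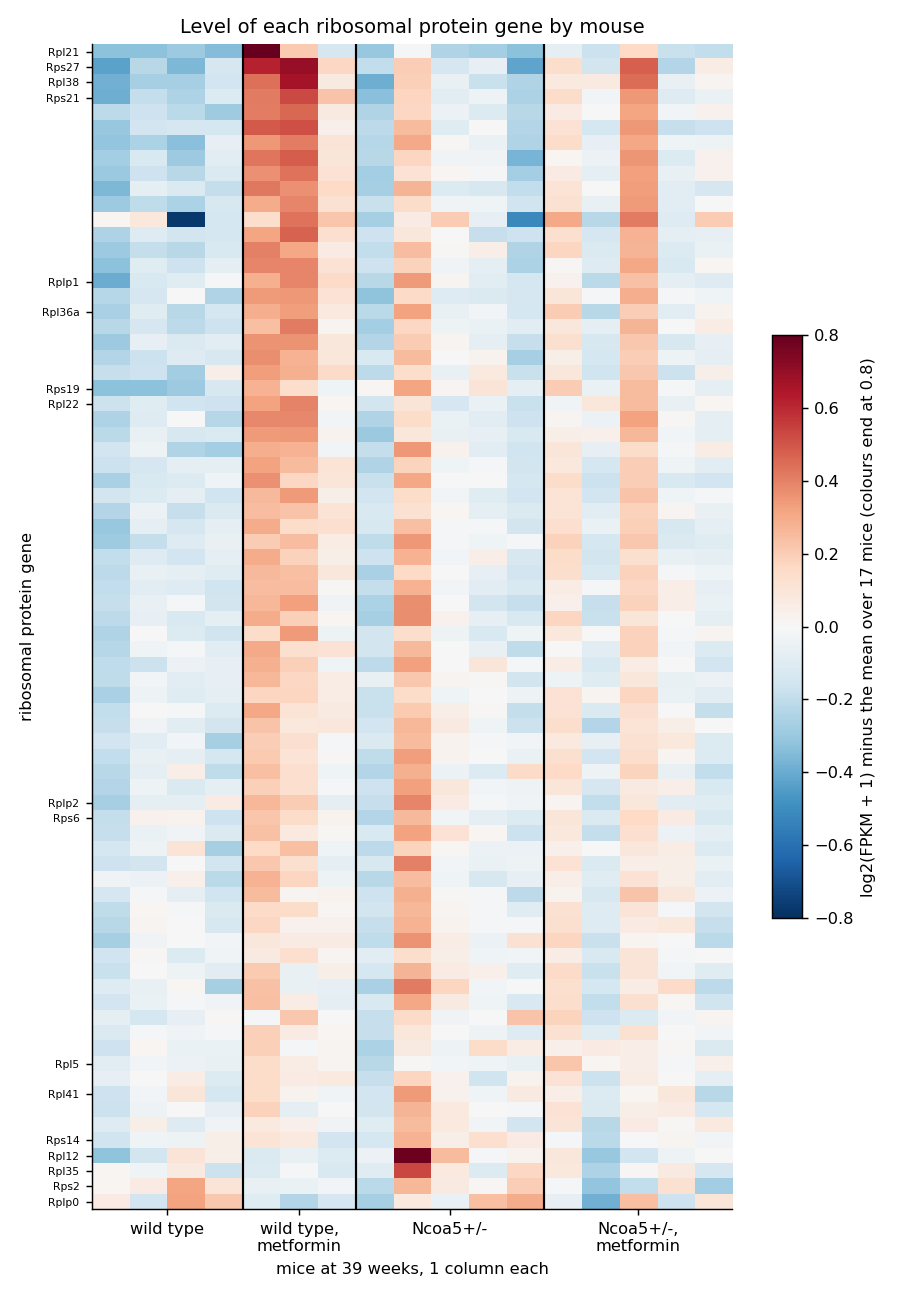
Level of each of the 76 ribosomal protein genes (rows, ordered by the difference between treated and untreated wild-type mice, with some rows named) in each of the 17 mice of 39 weeks (columns, by group), as log2(FPKM + 1) minus the gene's mean over the 17 mice; red is above and blue below the mean, and colours end at 0.8. Treated wild-type replicates 1 and 2 are red in nearly every row and replicate 3 is pale, while Ncoa5+/- replicate 2 without and replicate 3 with metformin are also mostly red. Treated Ncoa5+/- replicate 1 is above the mean in 70 of 76 rows as well, by a smaller median.

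A mouse's median deviation from the members' cohort means showed the same mice. In wild type it was -0.21, -0.07, -0.09 and -0.11 without metformin and 0.26, 0.19 and 0.03 with it, so treated replicate 3 lay close to the cohort mean. It was 0.25 in untreated Ncoa5+/- replicate 2, with 75 of 76 members above their mean, and -0.19 in replicate 1 of that group, with 1 above. In the treated Ncoa5+/- mice it was 0.10, -0.12, 0.17, -0.02 and -0.07, with 70 members above in replicate 1 and 72 in replicate 3. Left out in turn, the 7 wild-type mice gave member medians between 0.24 and 0.36, and 72 or 73 members stayed positive. Without treated replicate 3 the smallest adjusted p was 0.0993.

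In Ncoa5+/- mice, the same drug comparison gave 47 of 76 members a higher mean after metformin and 29 a lower one, where 50% of all loci were higher. The median log2 fold change was 0.03, against 0 over all loci. None passed limma at an adjusted p under 0.05 (smallest 0.545, background 0%), and only Rpl5 reached an unadjusted p under 0.05, which 8.83% of all loci did. Rpl5 was at 174, 204, 199.9, 198 and 194 FPKM in untreated and 236, 205, 211, 202 and 209 in treated Ncoa5+/- mice, higher by 0.13 ± 0.06 with overlap. Rpl38 had the highest difference, 0.25 ± 0.13, and Rpl12 the lowest, -0.28 ± 0.14. Rps27 stood at 1956, 2575, 2041, 2142 and 1672 and 2469.8, 2026, 3129.6, 1903 and 2335 FPKM, groups that overlapped widely. The stalk proteins Rplp0, Rplp1 and Rplp2 differed by -0.12, -0.01 and -0.10 on the log2 scale. Leaving out 1 mouse moved this small median between -0.01, without untreated replicate 1 or treated replicate 3, and 0.10, without untreated replicate 2. The single member at an unadjusted p under 0.05 became 10 without untreated replicate 2 and 7 after quantile normalization. The count was 3 without untreated replicate 1 or treated replicate 4, and 2 without untreated replicate 4 or treated replicate 1. Without treated replicate 3 it was 0. No share of all loci was taken under these settings, here or in the comparisons below, so such counts have no background beside them.

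The interaction asks whether the drug's difference depends on genotype. Its median over the members was -0.25 (0.01 over all loci), and 75 of 76 members were negative. The exception was Rplp0, at 0.15 ± 0.20. A negative value means that treated minus untreated was lower in Ncoa5+/- than in wild-type mice. For Rps2 and Rpl12, whose means were lower after metformin in both genotypes, this was a wider fall in Ncoa5+/- mice. Over all loci 52.3% were positive. None passed an adjusted p under 0.05 (smallest 0.991, background 0%), and 26 members reached an unadjusted p under 0.05, all negative, against 2.79% of all loci. Rps19 had the smallest, -0.41 ± 0.14 (unadjusted p = 0.0105), followed by Rps13 at -0.30 ± 0.11 and Rps24 at -0.37 ± 0.14. A difference between the genotypes in the response was thus not called for any member. The count at an unadjusted p under 0.05 depended on single mice. It was 10 without untreated wild-type replicate 1 and 7 and 6 without treated wild-type replicates 1 and 2. It was 15 without untreated Ncoa5+/- replicate 2, 15, 15 and 16 without treated Ncoa5+/- replicates 2, 4 and 5, 41 without untreated Ncoa5+/- replicate 1, and 40 without treated wild-type replicate 3.

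The next comparison sets untreated Ncoa5+/- against untreated wild-type mice of 39 weeks and shares its wild-type mice with the drug comparison above. Here 72 of 76 members had a higher mean in Ncoa5+/- mice, with a median of 0.10 against -0.02 over all loci, of which 44.5% were higher. None passed an adjusted p under 0.05 (smallest 0.319), while 0.262% of all loci did. Rps19, the gene most often mutated in Diamond-Blackfan anaemia, was the only member at an unadjusted p under 0.05 (background 5.62%) and the only one without overlap (higher, background 1.09%). It stood at 358, 358, 367 and 413 FPKM in wild-type and 455, 560.1, 457, 485 and 429 in Ncoa5+/- mice. All 5 Ncoa5+/- values lay above all 4 wild-type ones, with a log2 difference of 0.35 ± 0.10 (95% interval 0.14 to 0.55; unadjusted p = 0.00242, adjusted p = 0.319 with limma). After quantile normalization its adjusted p was 0.0519. Rpl19 (0.16 ± 0.08), Rpl12 (0.28 ± 0.15) and Rps24 (0.17 ± 0.09) followed. Rps2, Rplp0, Rpl5 and Rps3 had lower means. Ncoa5+/- replicate 2 carried part of the shift: without it the median was 0.04. The single member at an unadjusted p under 0.05 became 7 without Ncoa5+/- replicate 1, 3 without wild-type replicate 3, 2 without Ncoa5+/- replicate 4 or 5, and 8 after quantile normalization.

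Between metformin-treated mice the direction was the other way. Against treated wild type, the treated Ncoa5+/- mice had a lower mean for 73 of 76 members, with a median of -0.16 (-0.01 over all loci, 47.7% of them higher). None passed an adjusted p under 0.05 (smallest 0.934; background 0.157%). At an unadjusted p under 0.05 there were 16 members, all lower (background 4.35%), and none of the 76 was free of overlap, where 1.72% of all loci were lower without overlap. Rpl27a had the smallest p, with 234, 260.5 and 207 FPKM in treated wild-type and 206, 171, 228, 178 and 179 in treated Ncoa5+/- mice, a difference of -0.28 ± 0.10. The third Ncoa5+/- mouse reached into the wild-type range. Rps21 differed by -0.32 ± 0.12, Rps27 by -0.43 ± 0.17 and Rplp1 by -0.30 ± 0.13. Rplp0 (0.10 ± 0.15), Rpl35 and Rpl12 were the 3 with a higher mean. This comparison and the drug comparison in wild type share the 3 treated wild-type mice. After quantile normalization the median was -0.06, with 20 members positive. The 16 members became 1 without treated wild-type replicate 1 and also without replicate 2, 4, 5 and 7 without Ncoa5+/- replicates 2, 4 and 5, and 31 and 30 without wild-type and Ncoa5+/- replicate 3.

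At 20 weeks the comparison of Ncoa5+/- with wild type gave 57 of 76 members a higher mean in Ncoa5+/- mice and 19 a lower one, with a median of 0.14. Over 10963 loci the median was 0.03 and 54.4% were higher. None passed limma at an adjusted p under 0.05 (smallest 0.603, background 0%). Rpl27a was the only member at an unadjusted p under 0.05, which 7.48% of all loci reached, and the only one without overlap, lower in Ncoa5+/- mice (background 1.06%). It was at 234, 197, 191 and 203 FPKM in wild-type and 114, 191, 115 and 143 in Ncoa5+/- mice, a difference of -0.58 ± 0.18 on the log2 scale (adjusted p = 0.603). The locus of Rpl27a holds 3 other names, among them the small nucleolar RNA Snora3. At 39 weeks the same contrast gave 0.07 ± 0.09 for it without and -0.28 ± 0.10 with metformin. Rpl15 differed by -0.33 ± 0.15 and Rps14 by 0.48 ± 0.23, both with overlapping values. The single member at an unadjusted p under 0.05 became 10 without wild-type replicate 2, 4 without Ncoa5+/- replicate 1, 2 without Ncoa5+/- replicate 4, and 3 after quantile normalization.

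At 20 weeks wild-type replicates 3 and 4 were low for most members. For Rps14, the wild-type mice were at 475, 541, 286 and 316 FPKM and the Ncoa5+/- mice at 471, 491, 596 and 644.2. The same split into a high and a low wild-type pair was seen in Rps6, at 149, 169, 104 and 98.0 against 110.2, 169, 138 and 174 FPKM. Without the low pair, a setting chosen after seeing that it was low and so bound to lower the difference, the median was -0.13 and 13 of 76 members were positive. Leaving out 1 mouse gave medians from 0.05, without wild-type replicate 4, to 0.24, without Ncoa5+/- replicate 1. With all 8 mice and quantile normalization the median was 0.004, with 39 positive. The library of replicate 4 is also one in which the 50 highest loci held over 70% of the FPKM sum. Rplp0 did not follow the split, with 193, 172, 173 and 182 FPKM in wild-type and 195, 122, 167 and 133 in Ncoa5+/- mice. Rpsa was at 597, 350.1, 643.6 and 666 FPKM in wild-type and 387, 559, 448 and 405 in Ncoa5+/- mice, with the second wild-type mouse lowest.

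**Figure D4:**
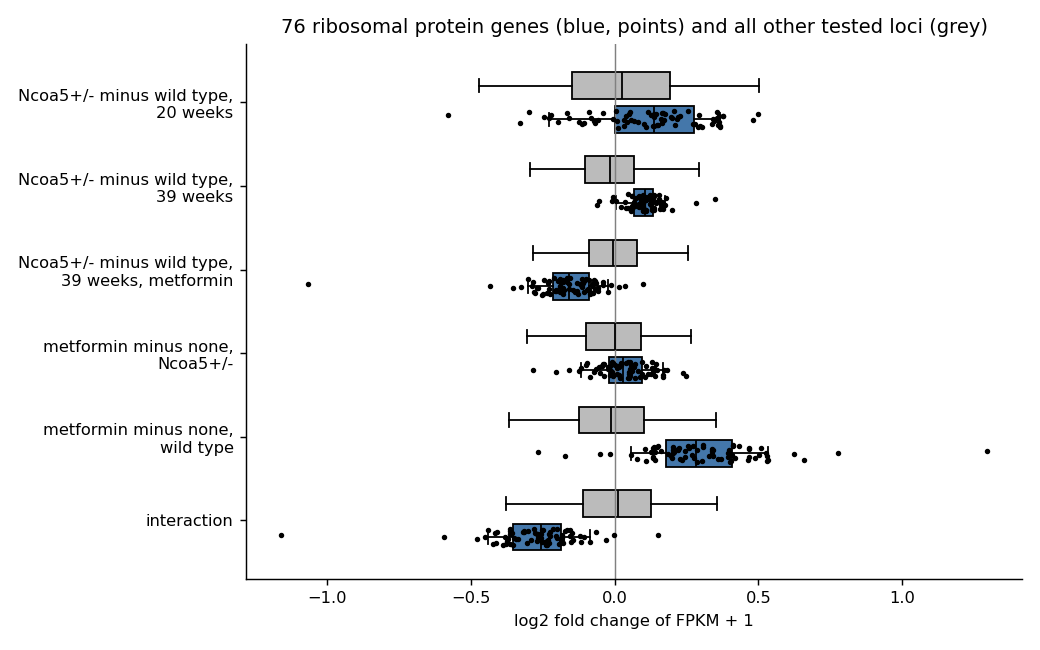
Log2 fold changes of FPKM + 1 (x axis) in the 6 comparisons (y axis) for the 76 ribosomal protein genes (blue boxes with black points) and all other tested loci (grey boxes); boxes span the quartiles with the median as a line, and whiskers reach from the 5th to the 95th percentile. The members' box lies to the right of 0 for metformin in wild type (median 0.28) and to the left for the interaction (median -0.25).

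The authors' deposited tables of comparisons cover Ncoa5+/- against wild type at 20 weeks and metformin in Ncoa5+/- mice at 39 weeks. Both tables give the log2 ratio with the wild-type or the untreated group on top, and the sign was turned here to read Ncoa5+/- over wild type and treated over untreated. So turned, the ratio of the authors' deposited table at 20 weeks was higher in Ncoa5+/- mice for 64 of 76 members, with a median of 0.17. None had a q-value under 0.05 in that authors' deposited table, while 2.1% of all loci did. For Rpl27a the turned ratio there was -0.28 (authors' q-value 0.847), where the limma fit gave -0.58. The turned ratio of the authors' deposited table for metformin was higher in treated mice for 52 members, with a median of 0.03. None had a q-value under 0.05 in that authors' deposited table (smallest 0.701, for Rpl38), where 1.22% of all loci did.

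Ribosomal protein mRNAs are short, and the size of the difference went with length. The median length of a gene's coding transcripts in GENCODE vM21 was 704 nt for the members and 2080 nt for the other loci tested at 39 weeks, of which 80.4% had a length. In the comparison of treated with untreated wild type, the 13 members under 500 nt had a median log2 difference of 0.47, the 31 of 500 to 749 nt 0.33, the 18 of 750 to 999 nt 0.20 and the 13 of 1000 to 2499 nt 0.27, so the order did not hold for the longest of these. The other loci of these lengths had medians of 0.08 (129 loci), 0.01 (698), 0.01 (870) and -0.01 (3758), and those of 2500 nt and over -0.04 (3687). Over the 76 members the Spearman correlation of the difference with length was -0.49, and over the other loci -0.12, across genes of the same libraries. In the interaction the members under 500 nt had a median of -0.41 and other loci of that length -0.07. The part of transcript length in these differences was not tested.

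**Figure D5:**
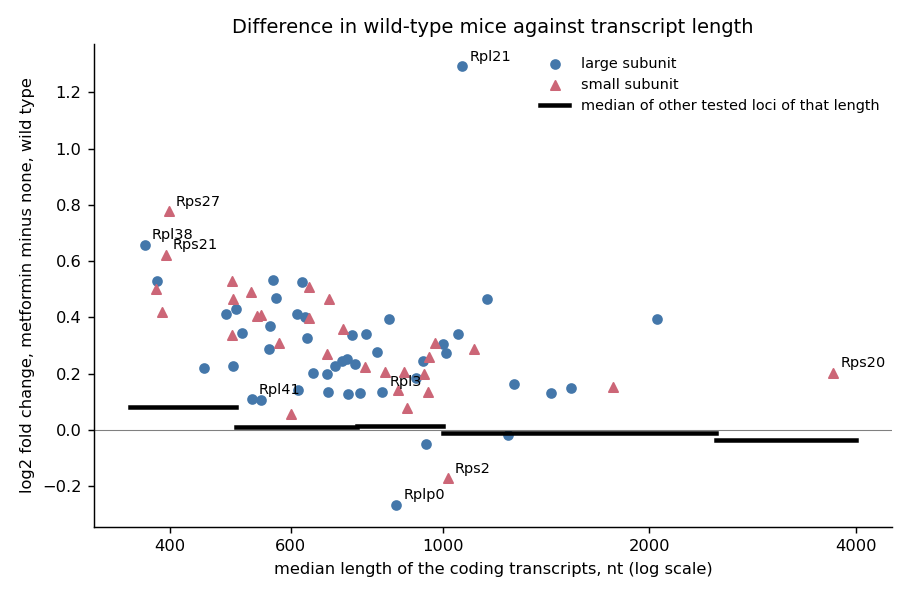
Log2 difference between metformin-treated and untreated wild-type mice (y axis) against the median length of a gene's coding transcripts in nt (x axis, log scale) for the 76 members, circles for the large and triangles for the small subunit; black bars are medians of the other tested loci in each length range. Short members such as Rps27, Rpl38 and Rps21 lie highest, apart from Rpl21, and the black bars stay between -0.04 and 0.08.

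Of 12 loci of genes related to ribosomal proteins but outside the naming rule, 9 passed the filter on the mean. Rps27l, a paralogue of Rps27 and a p53 target, was at 757, 799, 706 and 695 FPKM in untreated wild-type and 1103, 985, 866, 1033 and 909 in untreated Ncoa5+/- mice. All Ncoa5+/- values were higher, by 0.40 ± 0.09 on the log2 scale (unadjusted p = 0.000259, adjusted p = 0.0874 with limma), which misses the threshold. With metformin the genotypes differed by 0.28 ± 0.09 for Rps27l, again without overlap, and at 20 weeks by 0.44 ± 0.27 with overlap. Rpl22l1, the paralogue that Rpl22 represses, was at 82.4, 76.7, 74.5 and 88.5 FPKM in wild-type and 115, 141, 117, 88.2 and 108 in Ncoa5+/- mice of 39 weeks, a difference of 0.48 ± 0.17, while Rpl22 differed by 0.07 ± 0.09. Rps4l, a relative of Rps4x, had a lower mean in Ncoa5+/- mice, with differences of -0.52 ± 0.21 at 39 weeks and -0.59 ± 0.22 at 20 weeks and overlap at both ages.

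For metformin in wild type, 5 of the 9 relatives were higher, each at an unadjusted p under 0.05. That threshold was reached by 9.35% of all loci in either direction, and no relative passed limma at an adjusted p under 0.05. Rps27rt, a copy of Rps27 whose reads the counting could split with it, differed by 0.60 ± 0.15, Gnb2l1, the scaffold RACK1 of the small subunit, by 0.31 ± 0.10, Rpl22l1 by 0.45 ± 0.19, Rps3a1 by 0.23 ± 0.10 and Rps27l by 0.22 ± 0.10. Fau, made as a fusion with a ubiquitin-like part, differed by -0.02 ± 0.11 and Rpl7l1 by -0.05 ± 0.12. Gnb2l1 and Fau stand in the list of TOP mRNAs below as well.

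Other translation genes were read in the same comparison of treated with untreated wild type, and none was called. Ribosomal protein pseudogenes, whose reads can come from the parent genes, were higher for 23 of 28 tested loci with a median of 0.28. Their summed level was 539 to 601 FPKM in untreated and 692 to 808 in treated wild-type mice. Other mRNAs known to start with a TOP motif were higher for 13 of 20, with a median of 0.07. Those with the smallest p beside Gnb2l1 were Eef1b2 (0.38 ± 0.11), a subunit of the elongation factor complex, and Nap1l1 (0.28 ± 0.12), a histone chaperone. Mitochondrial ribosomal proteins were higher for 48 of 77 with a median of 0.03, led by Mrpl32 (0.25 ± 0.06) and Mrpl52 (0.44 ± 0.14). Elongation factors were higher for 4 of 9, initiation factors for 14 of 37, ribosome biogenesis genes for 24 of 64 and mTOR pathway genes for 9 of 26, with medians from -0.04 to -0.02.

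In the interaction the biogenesis genes were positive for 52 of 64 (median 0.10) and the pseudogenes for 1 of 28 (median -0.29). In untreated mice of 39 weeks, Ncoa5+/- against wild type, the pseudogenes were higher for 26 of 28 (median 0.14), other TOP mRNAs for 14 of 20 (median 0.02) and mitochondrial ribosomal proteins for 39 of 77 (median 0.002). At 20 weeks mitochondrial ribosomal proteins were higher for 60 of 77 (median 0.17), elongation factors for 7 of 9 and initiation factors for 27 of 37. No gene of these lists passed an adjusted p under 0.05 in any of the 6 comparisons.

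Markers of other liver cells were read in the same 6 comparisons, and none was called. For metformin in wild type, 7 of 12 Kupffer cell markers were higher (summed 291 to 747 FPKM untreated, 359 to 472 treated), 5 of 10 sinusoidal endothelial markers, 3 of 5 erythroid markers and 7 of 9 tested stellate cell markers (summed 171 to 232 FPKM untreated, 195 to 244 treated). Of 5 tested lymphocyte markers 3 were higher, and the list's sum overlapped, from 16.1 to 28.5 FPKM untreated and from 19.6 to 31.8 treated. For metformin in Ncoa5+/- mice, 11 of 12 Kupffer cell (median 0.26), 8 of 10 sinusoidal, 4 of 5 erythroid, 5 of 9 stellate and 0 of 5 lymphocyte markers were higher. In the interaction 10 of 12 Kupffer cell, 9 of 10 sinusoidal, 5 of 5 erythroid, 6 of 9 stellate and 0 of 5 lymphocyte markers were positive. With metformin, Ncoa5+/- against wild type, 2 of 12 Kupffer cell, 8 of 10 sinusoidal and 4 of 5 erythroid markers were higher. So were 6 of 9 stellate and 5 of 5 lymphocyte markers. Neutrophil markers were higher for 1 of 2 tested with metformin in wild type and 2 of 2 in Ncoa5+/- mice. They were positive for 2 of 2 in the interaction and higher for 0 of 2 between treated genotypes. Cholangiocyte markers, in the same order, were higher or positive for 2 of 3, 0 of 3, 1 of 3 and 3 of 3. Tested hepatocyte markers were so for 2 of 6 in each of these comparisons.

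For untreated Ncoa5+/- against wild type, 0 of 12 Kupffer cell markers were higher at 39 weeks (median -0.33; summed 291 to 747 FPKM in wild-type and 191 to 518 in Ncoa5+/- mice). At 20 weeks 0 of 12 were higher as well (median -0.59; summed 80.8 to 212 and 68.9 to 119.7 FPKM). Sinusoidal markers were higher for 1 of 10 at 39 weeks and 2 of 10 at 20 weeks, and stellate markers for 5 of 9 and 0 of 6. Erythroid markers were higher for 0 of 5 at 39 weeks (median -0.13; 434 to 759.6 and 441 to 658 FPKM) and for 5 of 5 at 20 weeks (222 to 259.5 and 263 to 346 FPKM). Lymphocyte markers were higher for 5 of 5 at 39 weeks (16.1 to 28.5 and 20.6 to 53.8 FPKM) and 2 of 2 at 20 weeks. The part of cell composition in the members' differences was not tested. Neutrophil markers were higher for 2 of 2 tested at 20 weeks (median 0.98) and 0 of 2 at 39 weeks (median -0.40). At 20 weeks their list summed to 1.92 to 3.46 FPKM in wild-type and 2.13 to 18.8 in Ncoa5+/- mice. Cholangiocyte markers were higher for 2 of 3 at 39 weeks and 1 of 1 at 20 weeks. Tested hepatocyte markers were higher for 2 of 6 at 39 weeks (median -0.06) and 4 of 5 at 20 weeks (median 0.36). The neutrophil marker Ly6g was listed at 0 in 7 of 8 mice at 20 weeks and 14 of 17 at 39 weeks.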

How the data were processed

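Total RNA from whole liver of 25 mice was sequenced, and the authors deposited FPKM per locus for each mouse. Per the submitters' processing notes, the tools were Trimmomatic 0.33, TopHat2, Cufflinks and Cuffnorm with build GRCm38.p5; settings were not given in the sources used here. A locus can carry several gene names, such as a gene and the small RNAs in its introns, and near-identical copies can share reads. The authors also deposited 2 tables of comparisons with log2 ratios, p-values and q-values, used only to describe.

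Samples were grouped by the genotype, age and treatment labels. From the FPKM, log2(FPKM + 1) was computed for loci with a cohort mean of at least 1, and limma 3.58.1 (R 4.3.3, trend in eBayes, checked on simulated data) was fitted per cohort, with all 4 groups of 39 weeks in 1 fit. P-values were adjusted by Benjamini-Hochberg over all loci tested, and calls needed an adjusted p under 0.05. Loci listed at 0 throughout 1 group but above 0 in every mouse of another were left out as failed estimates. Fold changes are on the log2(FPKM + 1) scale, which understates low genes; errors are SE for fold changes and SD for levels. The deposited files hold no counts, so depth could not be used. Alternatives were other pseudocounts (0.1 and 5), filters, normalizations and left-out mice. Counts at an unadjusted p in these alternatives were taken for the members only. Members and lists were chosen with earlier results of these data known. Genes were named as follows: a list of landmark members, the members with the smallest p and the widest fold change in each comparison, and the highest, lowest and most and least variable. Rpl13 was not analysed here. Transcript lengths come from GENCODE vM21, and start windows from RefSeq. Python 3.11.15 was used for the rest.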

Additional observations from a re-analysis of the deposited data

Results flagged for a closer look

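In groups of 4 or 5 mice, 1 value lay far from the others by Dixon's test in 11 of 200 groups checked over 40 measures; chance flags about 1 in 20 groups. Treated Ncoa5+/- replicate 3 was high for Rpl26 (650.8 FPKM), Rpl38 (1819 FPKM) and Rps13 (292 FPKM). In the same group replicate 1 was high for Rpl5 (236 FPKM) and replicate 2 low for Rps14 (628 FPKM). Untreated wild-type replicate 1 of 39 weeks was low for Rpl36 (682 FPKM), Rpsa (160.1 FPKM) and the summed level of all 76 members (35120 FPKM), and replicate 2 of that group was high for Rpl22 (349 FPKM). Wild-type replicate 1 of 20 weeks was high for Rpl41 (737 FPKM). Untreated Ncoa5+/- replicate 3 of 39 weeks had 78.3% of its FPKM sum in its 50 highest loci.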

How the results depend on the processing

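No paired analysis was possible because the labels give the mice no replicate numbers that run across groups. No member was called in any comparison under any of the settings tried. Each median moved by less than the SD between mice. That bar is wide, since a change of sign can meet it, and so does not show that a median is stable. Over the settings run, the median log2 fold change of the members ranged from 0.21 (quantile normalization) to 0.36 (without treated wild-type replicate 3) for metformin in wild type, and from -0.32 to -0.17 for the interaction. It ranged from 0.04 to 0.15 for genotype in untreated mice of 39 weeks, from -0.22 to -0.06 for genotype with metformin, from -0.01 to 0.10 for metformin in Ncoa5+/- mice, and from -0.13 to 0.24 for genotype at 20 weeks. The sign of the last 2 changed in at least 1 setting: at 20 weeks when wild-type replicates 3 and 4 were both left out, and for metformin in Ncoa5+/- mice when untreated replicate 1 or treated replicate 3 was left out. The smallest adjusted p of a member in any setting was 0.0519, for Rps19 after quantile normalization. Restricting the set to loci with a single name gave a median of 0.31 for metformin in wild type. Without counts, how far depth limits each value could not be measured, and the 3 treated wild-type mice limit the precision of each comparison they enter.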

Other observations

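Rpl30, a protein of the large subunit, varied most among untreated wild-type mice of 39 weeks, at 426, 447, 246 and 381 FPKM, and stood at 275, 245, 244 and 252 FPKM in wild-type mice of 20 weeks. Rpl12 shares its locus with the small nucleolar RNA Snora65 and was at 17.8, 20.3, 24.3 and 23.3 FPKM in untreated wild-type mice of 39 weeks.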
